A study of Mus musculus with 4 samples.

Results

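Elavl binding sites were examined in 30 mouse genes that encode scaffold and signalling proteins of the excitatory postsynapse and of dendritic spines. The genes were taken from a list of names, and their sites were all deposited peaks that touched their annotated spans. They are 30 of 21900 coding genes of the reference. Of the 97775 peaks listed for cortex 1868 fell in them, as did 12 of the 7335 listed for N2A. The peaks come from HITS-CLIP, in which proteins are fixed to bound RNA with ultraviolet light, immunoprecipitated, and the attached RNA fragments sequenced. There were 3 mouse cortex samples, prepared with a degenerate 5′ linker of 25 nt and represented by 1 joint peak list tagged 2month, and 1 sample of N2A cells, a mouse neuroblastoma line grown under standard conditions, with a linker of 7 nt and a list of its own. No mutant or treated group is labelled, the sources used here give neither strain nor antibody, and linker and tissue cannot be told apart.

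Beneath the synaptic membrane, Dlg proteins hold glutamate receptors, Dlgap proteins tie the Dlg layer to Shank proteins, and Shank proteins reach to Homer and to the actin of the spine. Exchange factors such as Kalrn and Tiam1 switch on small GTPases that shape this actin. Elavl proteins bind U-rich and AU-rich RNA, where they act on splicing when bound in introns and on stability and translation when bound in the 3′ untranslated region of the mRNA. The family has a widely made member, Elavl1, and neuronal members, and the labels do not say which of them the antibody recognised.

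Each list gave 1 p-value per peak and no read counts, so the depth is unknown, and no value belonged to a single cortex sample. A low deposited p is called a strong peak here, and p was used only to order peaks within a list. With 1 list per group no spread between samples could be computed and no difference between cortex and N2A could be tested. Intervals are Wilson 95% intervals for counting error alone, and peaks are not replicates. Among marker genes, the cortex list had peaks in 5 of 5 cortical excitatory neuron, 2 of 3 inhibitory neuron, 3 of 4 astrocyte, 3 of 3 oligodendrocyte, 1 of 4 microglia and 1 of 3 endothelial genes, against 0 in N2A for each of these classes. Sympathoadrenal and neuroblastoma genes had cortex peaks in 3 of 6 and N2A peaks in 5 of 6. Of all coding genes 40.8% had a cortex peak and 14.5% an N2A peak. For classes this small, 0 in N2A is near that background. All 8 cortex peaks of P2ry12, the microglial gene with peaks, and all 5 of the astrocyte gene Aqp4 also lay in other genes. Peaks in glial genes were thus part of the cortex list, and the part of each cell type in the peaks below was not tested.

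Nearly all of the postsynaptic genes carried Elavl peaks in cortex, and few did in N2A. Cortex peaks were found in 29 of 30 genes, or 96.7% (83.3 to 99.4), against 40.8% of all coding genes. The median span of the set is above that of coding genes, and by length the shares lay closer: 4 of 4 genes under 50 kb against 31.7% of coding genes, 10 of 11 of 50 to 200 kb against 69.1%, 7 of 7 of 200 to 500 kb against 81.9% and 8 of 8 longer ones against 91.6%, which is near the background. N2A peaks were found in 6 of 30, or 20% (9.51 to 37.3), against 14.5% of all coding genes. The 6 were Dlg1, Dlg4, Dlgap4, Homer1, Magi1 and Grip1, and each of them also had cortex peaks. Among all coding genes 13.3% had peaks in both lists, and 2914 of the 3184 with an N2A peak also had a cortex peak, so that 6 of 6 is near the background. The N2A share lies close to its background, also by length: 1 of 4 genes under 50 kb against 11.4%, 2 of 11 of 50 to 200 kb against 25.9%, 1 of 7 of 200 to 500 kb against 23.1% and 2 of 8 longer ones against 18.5%. Strong peaks, with a deposited p under 0.001, were present in 27 of the 30 genes in cortex against 28.4% of coding genes, and in 2 of 30 in N2A against 7.57%. These shares were not split by length, and most coding genes are shorter than those of the set. The genes without a strong cortex peak were Grip2, Homer3 and Iqsec2.

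The list of cortex peaks was 13.3 times as long as that of N2A, while the 30 genes held 156 times as many cortex peaks as N2A peaks. They took up 1.91% of the cortex list (1.83 to 2.00) and 0.164% of the N2A list (0.0936 to 0.286). Their spans made up 1.08% of the summed spans of coding genes, and by number they are 30 of 21900. Of the N2A peaks of coding genes, 79.5% lay within 5 kb of the gene end, so the share of spans is not a matched background for N2A. The part of gene length in these contrasts was not tested. RNA levels were not measured, and whether N2A cells transcribe the genes without N2A peaks was not tested.

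**Figure D1:**
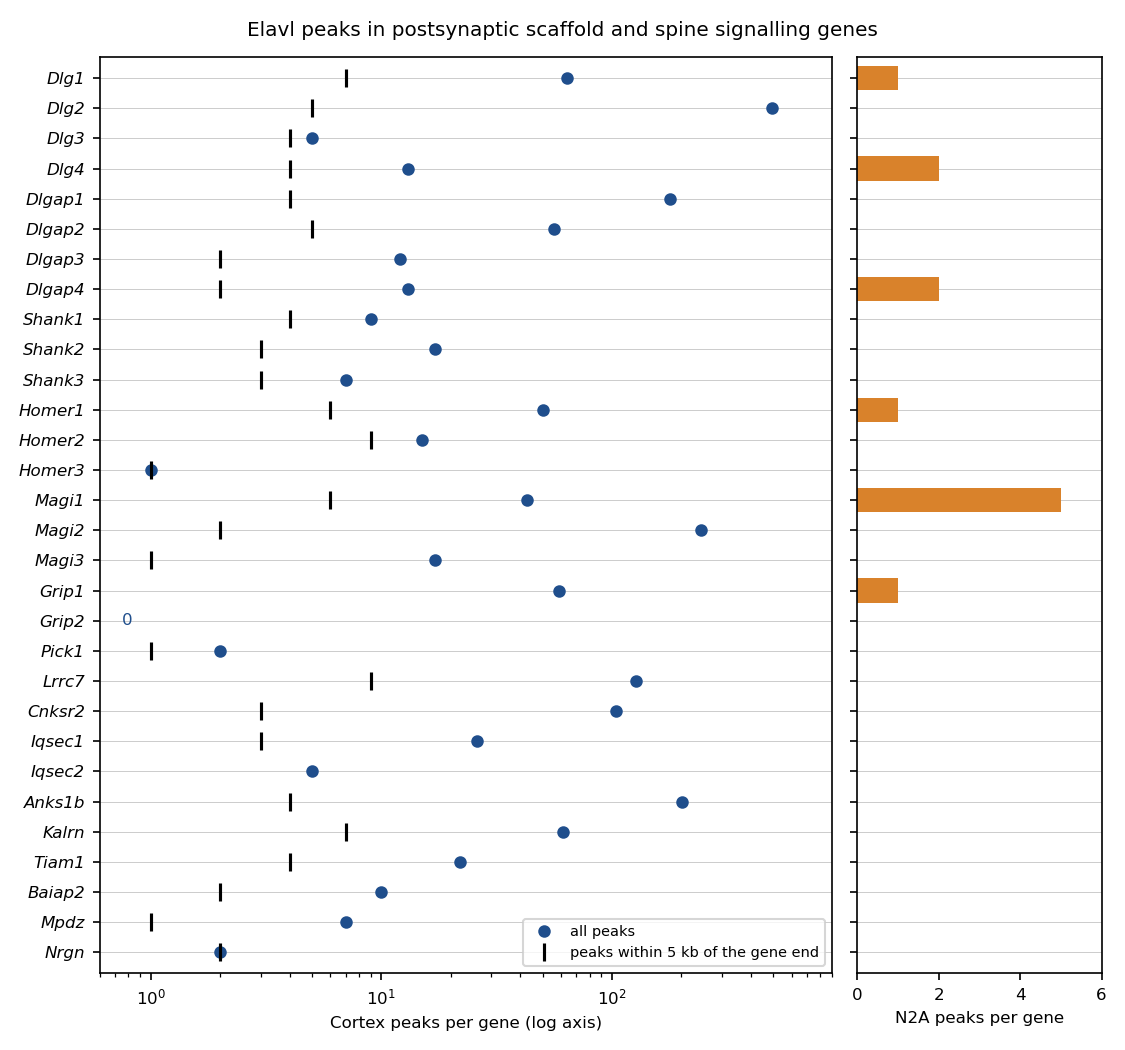
Number of Elavl peaks in each of the 30 genes, in cortex on the left (log axis, dots for all peaks, upright strokes for those within 5 kb of the gene end) and in N2A on the right (bars from 0). Cortex counts run from 0 for Grip2 to 496 for Dlg2, whereas the 6 genes with N2A peaks have between 1 and 5.

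The Dlg genes encode membrane-associated guanylate kinases, the scaffolds that bind NMDA receptors and, through partners, AMPA receptors. All 4 had cortex peaks, and 2 of 4 had N2A peaks. Dlg2 had 496 cortex peaks in a span of 1973 kb, which is place 10 by number among the 8939 coding genes with a cortex peak. Dlg1 had 64 in 210 kb, Dlg4 had 13 in 28.3 kb, and Dlg3 had 5. Counted per 100 kb of span, the order was another one, with 45.9 in Dlg4, 30.5 in Dlg1, 25.1 in Dlg2 and 9.80 in Dlg3.

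Dlg4, the principal scaffold of mature excitatory synapses, had its strongest cortex peaks at the very end of the gene. The strongest lay at chr11:70045468-70045519 (GRCm38, plus strand), 0.0415 kb from the annotated end, with a p of 5.31e-165, and the next at 70045251-70045301, 0.259 kb from the end, with a p of 7.71e-126. The third strongest, 9.75 kb from the end, had a p of only 3.79e-05. N2A had 2 Dlg4 peaks, at 70045475-70045525 (p of 8.29e-06) and at 70044798-70044848 (p of 7.87e-06). The first of these overlapped the strongest cortex peak by 45 nt, so the same stretch at the end of Dlg4 carried a peak in cortex and in N2A. The other lay 403 nt from the nearest cortex peak.

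In Dlg1, a scaffold that takes part in AMPA receptor traffic, 7 of the 64 cortex peaks lay within 5 kb of the gene end. The strongest, at chr16:31871781-31871832 (plus strand), lay 1.55 kb from the end with a p of 2.22e-23. The single N2A peak, at 31873178-31873228 with a p of 0.0351, lay 0.153 kb from the end and 82 nt from the nearest cortex peak. Both lists thus placed Dlg1 peaks in the last 2 kb, without overlap. Dlg3, the scaffold abundant at young synapses, had 4 of its 5 cortex peaks within 5 kb of the end, with p-values of 5.57e-45, 1.01e-24, 8.04e-10 and 0.00351, and no N2A peak.

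Dlg2 showed another layout by number, since 471 of its 496 cortex peaks lay more than 50 kb from the end and 5 lay in the last 5 kb. Those 5 were 1.01% of its peaks, in 0.253% of its long span. Its strongest peak was nevertheless among those 5, at chr7:92444684-92444735 (plus strand), 4.54 kb from the end, with a p of 1.99e-139. The next was deep inside the gene, 909 kb from the end, with a p of 4.29e-72. RefSeq lists starts of Dlg2 transcripts at 615 kb, 1586 kb and 1759 kb into the span. Peaks numbered 82 before the first of these starts, 330 between the first and the second (34.0 per 100 kb), 29 between the second and the third (16.8 per 100 kb) and 55 after the third (25.7 per 100 kb). The longest stretch without a peak, 161 kb, ran from 278 to 440 kb into the span. Dlg2 had no N2A peak.

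The Dlgap proteins bind the guanylate kinase domain of Dlg proteins and pass the link on to Shank proteins. All 4 genes had cortex peaks, namely 179 in Dlgap1, 56 in Dlgap2, 13 in Dlgap4 and 12 in Dlgap3, and only Dlgap4 had N2A peaks. The strongest peak of Dlgap1, at chr17:70821020-70821071 (plus strand), lay 0.367 kb before the end, with a p of 3.75e-160, in a span of 852 kb. That of Dlgap2 lay 0.149 kb before the end, with a p of 2.98e-45, in a span of 758 kb. In both genes most peaks lay elsewhere, with 165 and 46 of them more than 50 kb from the end, but the strongest single site was at the end. Of the Dlgap1 peaks 13 also lay in the spans of long noncoding RNA genes, 7 of them in Gm36746.

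Dlgap4 had 13 cortex peaks, 2 of them in the last 5 kb and both with a p under 0.001. The strongest lay at chr2:156763942-156763993 (plus strand) with a p of 2.67e-12. The N2A list had 2 Dlgap4 peaks, at 156763919-156763969 (p of 0.0317) and 156764118 to 156764169 (p of 0.0797). The first overlapped the strongest cortex peak by 28 nt, and the second lay 125 nt from the nearest cortex peak. Dlgap3 differed in that its strongest peak, with a p of 1.29e-08, lay 32.6 kb from the end, followed by peaks at 0.0455 kb (p of 1.75e-06) and 0.384 kb (p of 7.15e-06).

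Shank1, Shank2 and Shank3, the deepest layer of the scaffold, had 9, 17 and 7 cortex peaks and no N2A peak. Per 100 kb of span these were 17.6, 3.79 and 10.4 peaks, Shank2 having the lowest value of the 29 genes with peaks. The peaks themselves were strong. The strongest Shank1 peak, at chr7:44358393-44358444 (plus strand), had a p of 3.05e-210, and the second, 1.13 kb from the end, a p of 2.45e-123. The strongest Shank2 peak, at chr7:144422578-144422629 (plus strand), lay 3.44 kb from the end with a p of 1.89e-130, and the next 2 lay 1.93 and 1.81 kb from the end with p-values of 6.85e-80 and 5.80e-53. The strongest Shank3 peak lay 0.219 kb from the end with a p of 1.83e-21. In each Shank gene, then, the strongest site was within 5 kb of the end, and no peak was found in the first 23.2 kb of Shank1, the first 158 kb of Shank2 or the first 43.6 kb of Shank3.

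Homer proteins connect Shank proteins with metabotropic glutamate receptors and calcium release channels. Homer1, which also makes a short activity-induced mRNA that ends within the gene, had 50 cortex peaks in 101.4 kb, at 49.3 per 100 kb the highest density of the 30 genes. Its strongest peak, at chr13:93365040-93365090 (plus strand), lay 40.1 kb before the annotated end, with a p of 6.67e-34. The next were at 46.2 kb (p of 5.17e-20) and 41.5 kb (p of 4.67e-18) from the end. The 5 kb with the most peaks, 9 of them, were centred 46.9 kb from the end, whereas the last 5 kb held 6 peaks, the strongest with a p of 7.40e-14. The single N2A peak, at 93365705-93365755 with a p of 0.00835, lay 39.4 kb from the end and 7 nt from the nearest cortex peak. Both lists therefore had Homer1 peaks in the same inner region, and the reference used here does not say where in it the short mRNA ends.

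Homer2, in contrast, had all of its 15 cortex peaks within 20 kb of the gene end, 9 of them in the last 5 kb, in a gene of 106 kb. Its first 86.8 kb held none, and the strongest peak lay 3.12 kb from the end with a p of 3.61e-33. Homer3 had 1 cortex peak, with a p of 0.0996, the highest part of the deposited range, and this peak also lay in the span of Ddx49. Neither gene had an N2A peak. The 3 Homer genes thus had a dense inner cluster, a cluster at the end, and next to nothing.

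**Figure D2:**
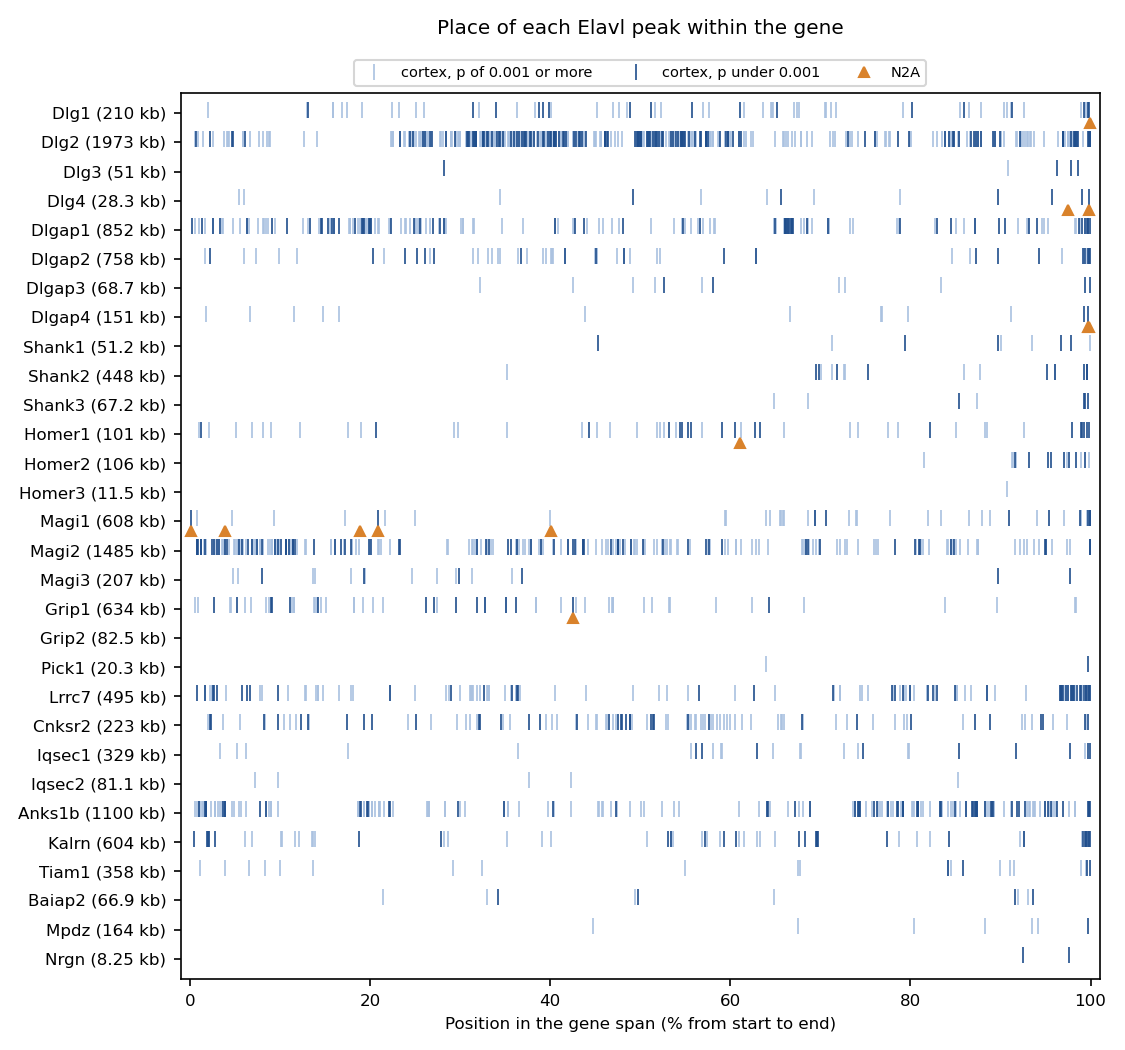
Place of every Elavl peak within each gene, as a percentage of the span from start to end, with cortex peaks as strokes (dark where p is under 0.001) and N2A peaks as triangles. Homer2 has no peak in the first 81.5% of its span and Shank3 none in the first 64.8%, while Dlg2, Magi2 and Anks1b have peaks along most of theirs.

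Magi proteins are further guanylate kinase scaffolds, with a wide range of membrane partners. Magi2 had 244 cortex peaks in 1485 kb, Magi1 had 43 in 608 kb and Magi3 had 17 in 207 kb. Of the Magi2 peaks 240 lay more than 50 kb from the end, among them the strongest, 955 kb from the end with a p of 2.84e-42. The second strongest lay 1.18 kb from the end with a p of 1.37e-30. Of the Magi2 peaks 21 also lay in noncoding genes, 16 of them in Gm52766. The strongest Magi1 and Magi3 peaks were likewise far inside, at 186 kb (p of 7.60e-19) and 167 kb (p of 3.54e-06) from the end, so that none of the 3 genes had its strongest site near the end. The only Magi3 peak in the last 5 kb lay on the other strand.

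Magi1 had the most N2A peaks of the 30 genes, 5 of them, all on the minus strand of chromosome 6 and all between 365 and 608 kb from the gene end, in the earlier part of the span. The strongest, at 94283322-94283373 with a p of 0.000421, lay 0.582 kb from the start of the span and overlapped by 44 nt the second strongest cortex peak of the gene, at 94283330-94283381 with a p of 3.55e-08. Another, at 94156782-94156833 with a p of 0.0206, overlapped a cortex peak by 34 nt. That peak and the one at 94169149-94169200 (p of 0.0604) also lay in the noncoding gene 4930511A08Rik. The remaining N2A peaks, at 94259981-94260031 (p of 0.00758) and 94040207 to 94040257 (p of 0.0871), lay 4433 and 79 nt from the nearest cortex peak. Magi1 was the only one of the 6 genes with an N2A peak in its first 5 kb, and it had none in its last 5 kb, where cortex had 6. The first Magi1 start that RefSeq lists lies 370 kb into the span. All 5 N2A peaks and 11 of the cortex peaks lay before it.

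Grip1, Grip2 and Pick1 encode PDZ proteins that bind the tails of AMPA receptors. Grip1 had 59 cortex peaks and none of them in its last 5 kb. The strongest, at chr10:119723160-119723211 (plus strand), lay 364 kb from the end with a p of 1.25e-44. The single N2A peak, at 119723178-119723229 with a p of 0.0635, overlapped it by 34 nt, which makes an inner site of Grip1 one that both lists shared. RefSeq lists Grip1 starts at 0.796, 366 and 540 kb into the span, and 51 of the 59 cortex peaks lay between the first and the second (14.0 per 100 kb), against 5 between the second and the third (2.88 per 100 kb) and 3 after the third (3.18 per 100 kb). Of the Grip1 peaks 8 also lay in noncoding genes.

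Pick1 had 2 cortex peaks, at 0.062 kb (p of 0.000499) and 7.31 kb (p of 0.0373) from the end. Grip2 was the only gene of the 30 with no peak in either list. Extending its span by 5 kb brought in 4 cortex and 4 N2A peaks, and all of them lay on the other strand in the span of the neighbouring gene Slc6a6.

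Among the other scaffolds, Anks1b, a protein that carries signals from the synapse to the nucleus, had 202 cortex peaks, Lrrc7 (densin) had 127, Cnksr2, a scaffold of Ras signalling, had 104, and Mpdz, a protein of many PDZ domains, had 7. None had an N2A peak. The strongest Cnksr2 peak, at chrX:157822860-157822910 (minus strand), lay 1.46 kb from the end with a p of 5.43e-167, followed by one 0.678 kb from the end with a p of 7.61e-89. The strongest Anks1b peak, at chr10:90971298-90971349 (plus strand), lay 1.98 kb from the end with a p of 1.17e-147, and the second, 236 kb from the end, had a p of 9.14e-58. Both genes thus combined a strong end site with many weaker inner ones, 87 in Cnksr2 and 189 in Anks1b lying more than 50 kb from the end.

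Anks1b has 5 listed starts, of which those at 703 and 704 kb and at 956.7 and 956.9 kb form close pairs. Between the first start and the first of these pairs there were 89 peaks (12.7 per 100 kb), between the pairs 65 (25.7 per 100 kb), and after the last start 48 (33.5 per 100 kb). The density was therefore highest after the last listed start. In Lrrc7 the strongest peak, at chr3:158156473-158156523 (minus strand), lay 89.3 kb from the end with a p of 1.26e-92. The last 20 kb of Lrrc7 held 29 of its 127 peaks, and the 5 kb with the most, 11 of them, were centred 14.8 kb from the end. The strongest Mpdz peak lay 0.545 kb from the end with a p of 1.23e-07.

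The exchange factors activate small GTPases in spines, Arf proteins in the case of Iqsec1 and Iqsec2 and Rac in the case of Kalrn and Tiam1. Kalrn had 61 cortex peaks, Iqsec1 had 26, Tiam1 had 22 and Iqsec2 had 5, and none had an N2A peak. The strongest Tiam1 peak, at chr16:89788506-89788557 (minus strand), lay 1.42 kb from the end with a p of 1.35e-61, far below its second value of 9.86e-07. Kalrn had 7 peaks in its last 5 kb, the strongest with p-values of 1.26e-22 and 1.38e-18. The strongest Iqsec1 peak lay 0.275 kb from the end with a p of 9.16e-22. Iqsec2 stood apart from its paralogue, with no peak in its last 5 kb and a lowest p of 0.00751.

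Baiap2, which links Rac and Cdc42 to actin and bends membranes, had the lowest p of all 30 genes. Its strongest peak, at chr11:120002514-120002565 (plus strand), lay 4.24 kb from the end with a p of 7.41e-323, which is place 61 among the 8939 coding genes with a cortex peak. The second of its 10 peaks had a p of 9.91e-08, so that 1 site stood alone. Nrgn, the calmodulin-binding protein neurogranin, is the shortest gene of the 30, at 8.25 kb, and had 2 cortex peaks, 0.194 kb and 0.616 kb from the end, with p-values of 5.66e-43 and 3.23e-18. Neither gene had an N2A peak.

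**Figure D3:**
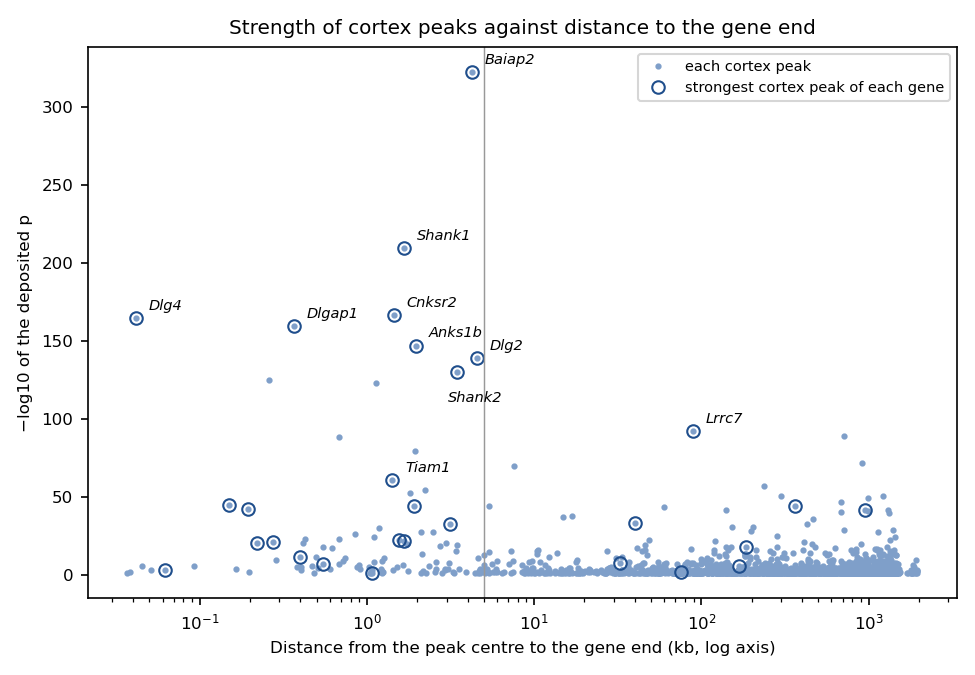
Strength of each cortex peak of the 30 genes, as −log10 of the deposited p, against the distance of its centre to the gene end in kb (log axis), with the strongest peak of each gene circled and the grey line at 5 kb. Of the 10 genes with the lowest p, named in the plot, all but Lrrc7 have their strongest peak within 5 kb of the end.

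Across the 30 genes, cortex peaks at the gene end made up a small share of the pooled peaks and had lower p-values than the others. In cortex 104 of 1868 peaks lay within 5 kb of the end, or 5.57% (4.62 to 6.70), against 20.3% of the peaks of all coding genes. This pooled share rests on a few long genes: with each gene weighted equally it was 24.2%, without Dlg2 7.22%, and among peaks with a p under 0.001 12.8%. Of the 104 peaks near the end, 79 had a p under 0.001 (76.0%, 66.9 to 83.2), against 537 of the 1764 farther from the end (30.4%, 28.3 to 32.6). For all coding genes the same shares were 53.4% and 28.9%. The median p of the 30 genes' peaks was 1.63e-07 near the end and 0.0119 elsewhere. The strongest cortex peak lay within 5 kb of the end in 21 of 29 genes, against 61.3% of coding genes with a cortex peak, and within 2 kb in 17 of 29. The median distance to the nearest other cortex peak was 404.5 nt for the peaks near the end and 1064.5 nt for the others.

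By the lowest p of each gene, 8 of the 29 genes were among the lowest 5% of coding genes with a cortex peak, 19 among the lowest 25% and 25 among the lowest 50%. In the class of 200 to 500 kb the median lowest p was 1.35e-61 in the set and 3.73e-14 in all coding genes with a peak, and in the class over 500 kb it was 7.72e-45 and 3.57e-31. In the class under 50 kb the order was the other way, with 0.000250 in the set and 1.63e-05 in all coding genes with a peak. In the class of 50 to 200 kb the medians were 9.13e-22 and 1.40e-09. The medians of the set were thus the lower ones in the 3 classes above 50 kb, a comparison that was not tested.

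The low share of end peaks went with the length of the genes. The 30 genes had a median span of 186 kb, against 17.1 kb for all coding genes. In spans over 500 kb, 2.46% of the 1340 cortex peaks of 8 genes lay within 5 kb of the end, against 2.86% for all coding genes of that class. In spans of 200 to 500 kb the shares were 7.96% and 9.94%, in spans of 50 to 200 kb 24.8% and 20.1%, and in spans under 50 kb 44.4% and 51.2%. Within classes of length the shares were therefore close to those of other coding genes. The strongest peak was at the end in 5 of 8 genes over 500 kb, against 32.7% of coding genes of that length with a peak, and in 5 of 7 of 200 to 500 kb, against 41.3%. It was at the end in 7 of 10 genes of 50 to 200 kb, against 51.7%, and in 4 of 4 shorter genes, against 69.7%. These differences are descriptions and were not tested.

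**Figure D4:**
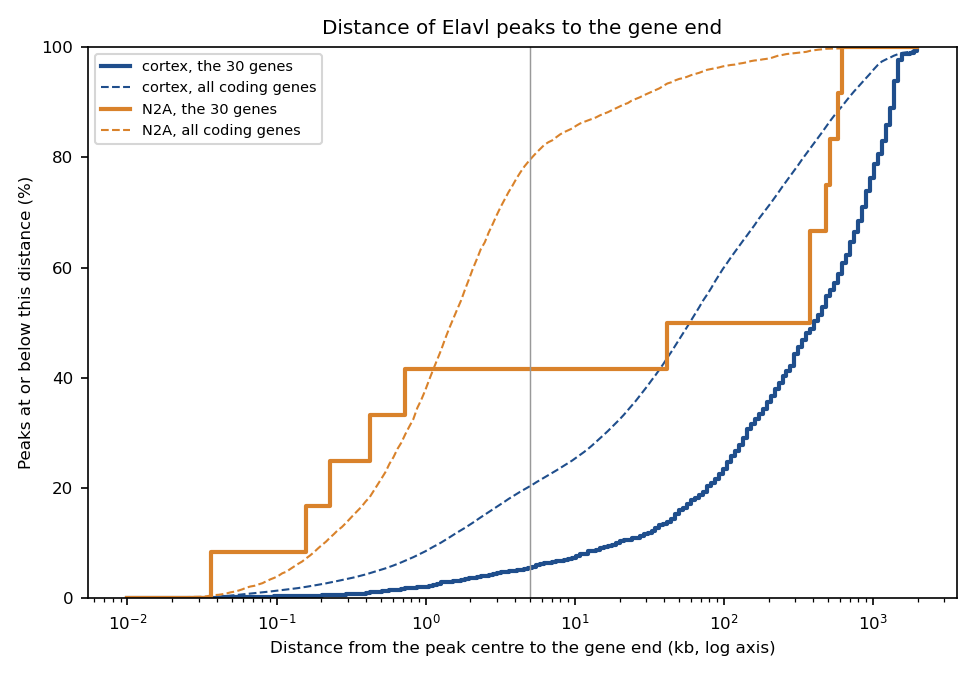
Share of peaks at or below a given distance from the gene end (kb, log axis) for the 30 genes (thick lines) and for all coding genes (dashed lines), in cortex and in N2A, with the grey line at 5 kb. At 5 kb the curve of the 30 genes stands at 5.57% in cortex and 41.7% in N2A, against 20.3% and 79.5% for all coding genes. The curves are not matched for gene length.

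In N2A 5 of the 12 peaks lay within 5 kb of the end, or 41.7% (19.3 to 68.0), against 79.5% of N2A peaks of all coding genes. The strongest N2A peak was within 5 kb of the end in 3 of 6 genes, against 82.6% of coding genes with an N2A peak. These 5 belonged to Dlg1, Dlg4 and Dlgap4, and the other 7 to Magi1, Homer1 and Grip1. By length, spans over 500 kb held 6 of the 12 peaks, 0 of them near the end, against 36.4% for all coding genes of that class. The shares were 1 of 1 in spans of 200 to 500 kb, against 57.7%, and 2 of 3 in spans of 50 to 200 kb, against 74.8%. Under 50 kb it was 2 of 2, against 86.4%. The strongest N2A peak was at the end in 0 of 2 genes over 500 kb, against 38.1%. None of this was tested. Cortex peaks overlapped 5 of the 12 N2A peaks, or 41.7% (19.3 to 68.0), and 41.8% of all N2A peaks, so the overlap in these genes did not stand apart from the list. The overlapped peaks lay in Dlg4, Dlgap4, Grip1 and, for 2 of them, Magi1. The N2A peaks of the 30 genes had a median p of 0.0261, against 0.00605 for the whole N2A list, and 3 of 12 had a p under 0.001, against 38.1% of the list. In cortex the corresponding medians were 0.0104 and 0.00972.

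Longer genes of the set had more cortex peaks. Across the 30 genes the Spearman correlation of peaks with span was 0.876. It was 0.538 across all 21900 coding genes, most of which had no cortex peak, and 0.594 across the 8939 with one. These values describe these lists, all counts share 1 set of libraries, and genes are not independent replicates. Dlg2, Magi2 and Anks1b, the 3 longest genes of the set, held 942 of the 1868 cortex peaks, or 50.4%. In the class over 500 kb the median was 120 cortex peaks per gene in the set, with a range of 43 to 496, against 52 for all coding genes of that class and 59.5 for those with a peak. In the class of 200 to 500 kb it was 26, against 13 and 19, and in the class of 50 to 200 kb 9, against 4 and 8. In the class under 50 kb the median was 2 cortex peaks per gene, against 0 and 2. Per 100 kb of span, the 29 genes had a median of 10.4 cortex peaks, with a range of 3.79 to 49.3, against a median of 12.4 for coding genes with a peak. The medians of the set thus lay above those of coding genes with a peak in the 3 classes above 50 kb and not in the shortest, while its median density was not above that of coding genes with a peak, most of which are shorter.

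**Figure D5:**
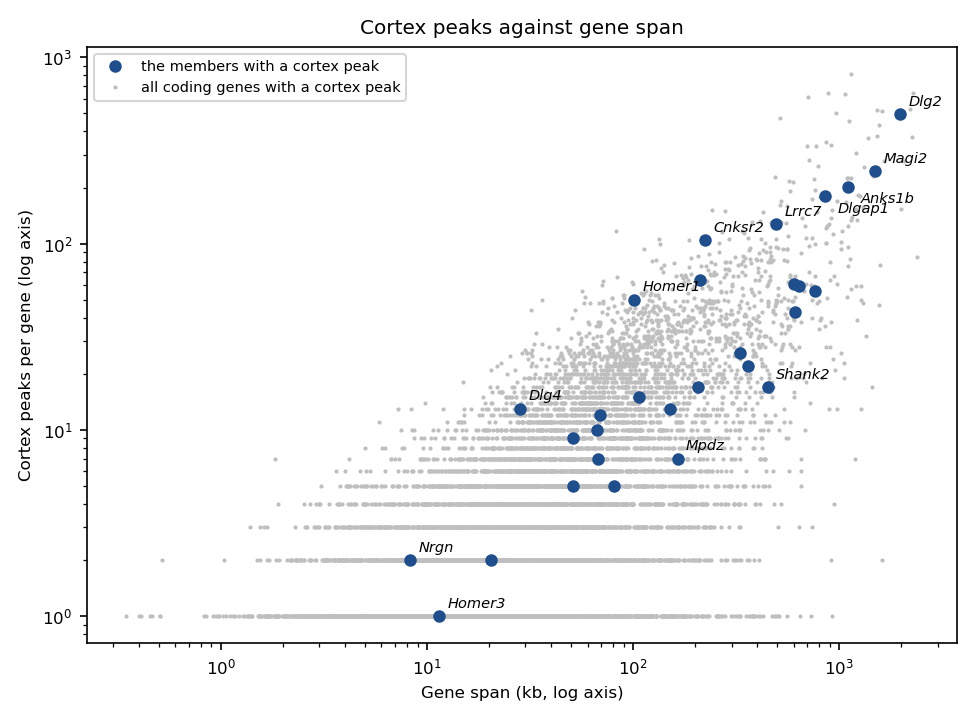
Cortex peaks per gene against gene span (kb), both on log axes, for the genes of the set with a cortex peak (blue) and for all coding genes with one (grey). Dlg2 is at the upper right with 496 peaks in 1973 kb, Homer1 and Cnksr2 lie high for their length, and Shank2 and Mpdz lie low.

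Few peaks lay at the start of the gene spans. In cortex 16 of 1868 peaks, or 0.857% (0.528 to 1.39), were in the first 5 kb, spread over 11 genes, against 5.79% for all coding genes. These shares were not split by length, and 1340 of the 1868 peaks lay in spans over 500 kb, of which 5 kb is a small part. The first 5 kb of a span need not hold a listed start. In Dlg2, Magi1, Iqsec1, Tiam1, Dlgap4 and Kalrn, among others, the first listed start lay farther inside, from 59.25 kb in Kalrn to 615 kb in Dlg2. RefSeq lists 50 promoter windows for 26 of the 30 genes, each running from 250 bases before to 50 after a start. Cortex peaks touched 0 of the 50, and N2A peaks 0 of the 50, against 0.357% and 0.0847% of the windows of coding genes. With shares this low, 0 of 50 is near the background. With each span divided into 4 equal parts, these held, from start to end, 22.5%, 27.8%, 22.5% and 27.1% of the cortex peaks. For all coding genes the same parts held 26.0%, 21.9%, 19.8% and 32.3%.

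Almost every peak lay on the strand of its gene. RefSeq starts gave the strand of 26 genes, and 1777 of their 1779 cortex peaks lay on it. The exceptions were a peak in Magi3 with a p of 0.000148 and one in Lrrc7 with a p of 0.0282, which lay 0.0385 kb from the end of the span. For Dlgap2, Shank1, Shank2 and Mpdz the strand was taken from the peaks themselves. All 12 N2A peaks lay on the strand of the gene. Of the cortex peaks 58, or 3.10%, were shared with the span of a further gene, as were 2 of the 12 N2A peaks.

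A second list of 41 postsynaptic and spine genes outside the set gave a wider view. It had cortex peaks in 38 of 41 genes and N2A peaks in 21 of 41, against the same 40.8% and 14.5% of coding genes. Its genes were shorter, with a median span of 71.3 kb, and 21.2% of their 627 cortex peaks and 87.3% of their 63 N2A peaks lay within 5 kb of the end. Of coding genes of 50 to 200 kb, the class of this median, 69.1% had a cortex peak and 25.9% an N2A peak. The list itself was not split by length. By function, N2A peaks were found in 4 of 6 GTPases and kinases, 8 of 12 genes of actin and spine shape, 5 of 10 linkers and other scaffolds and 4 of 13 GTPase regulators. Among the genes of actin and spine shape, all N2A peaks of Abi1, Abi2 and Cyfip1 also lay in other genes. The 11 N2A peaks of Abi2 all lay within 5 kb of its end and are part of the 63 above, so the share of 87.3% includes them. Without peaks shared between genes, the list had N2A peaks in 18 of 41 genes. With only peaks on the strand of the gene, it had them in 20 of 41. The difference in N2A counts between this list and the 30 genes was not tested.

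Among the lowest cortex p-values of the wider list were those of Agap2, an Arf and receptor-traffic regulator (p listed as 0, 5 peaks), Ppp1r9b, the actin-binding phosphatase scaffold spinophilin (1.09e-316, 4 peaks), the kinase Pak1 (1.03e-287, 35 peaks) and the actin nucleation promoter Wasf1 (5.00e-265, 23 peaks). In each of these 4 genes the strongest peak lay within 1 kb of the gene end, between 0.208 kb in Agap2 and 0.811 kb in Pak1. The lowest N2A p-values belonged to the light chain Dynll2 (9.60e-111, 4 peaks), Agap2 (2.28e-49, 1 peak), the actin-binding Dbn1 (drebrin, 5.45e-39, 1 peak) and the GTPases Cdc42 (5.97e-29, 7 peaks) and Rac1 (1.33e-20, 2 peaks). All of these are lower than the lowest N2A p of the 30 genes, 7.87e-06 in Dlg4. Rgs14, Lin7b and Arc, the activity-induced regulator of AMPA receptors, had no peak in either list.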

How the data were processed

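Peak lists of Elavl HITS-CLIP were used as deposited, 1 for 3 cortex samples and 1 for 1 N2A sample. Per the file headers, each row gives chromosome, start, end, label, p-value and strand. The p-value per peak is the authors' own, as deposited. The sources used here do not give its adjustment, the peak caller or how cortex reads were merged. Per the submitters' processing notes the aligner was Novoalign and the build hg19, a human one, although the samples are from mouse. Coordinates were read as GRCm38: 99.5% of 69657 cortex peaks in a single coding gene of known strand lay on that strand in the RefSeq table of GRCm38.p6. They are given unchanged, with no statement whether counting starts from 0 or 1.

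A peak counted for every gene span it touched. Gene strand came from the RefSeq promoter table, otherwise from most peaks. Distances run from the peak centre. The table gives neither exons, untranslated regions nor peak sequences, so none are shown. Python 3.11.15, pandas 2.3.3, SciPy 1.17.1 and matplotlib 3.10.9 were used, and the steps were tested on simulated peaks. The rule for genes described in full took those with an N2A peak, the 10 with the lowest cortex p, the 3 with the most cortex peaks and those without one. The others were to be given by name, count and lowest p within their family; the further distances and p-values printed for them were chosen after their values were seen. A result on the wider list is not reported here. The 30 genes, the wider list and the markers were chosen with earlier results of these data known. Alternatives were the p threshold, the window, the overlap, the span, the strand of the peaks and the treatment of shared peaks.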

Additional observations from a re-analysis of the deposited data

How the results depend on the processing

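The 29 of 30 genes with a cortex peak became 27 to 30 under 6 alternatives, and the wider list had 34 to 38 genes in cortex and 16 to 21 in N2A. The p threshold moved the counts most. With a deposited p under 0.001, the cortex peaks of the set numbered 616, the N2A peaks 3, the genes with an N2A peak 2 and the N2A peaks overlapped by cortex 2 of 3. With the stronger 50% of each list these values were 926, 3, 2 and 2 of 3. The share of cortex peaks near the gene end was 12.8% with a p under 0.001, 9.18% with the stronger 50% of the list, 3.69% with a window of 2 kb and 7.55% with one of 10 kb. Settings chosen after seeing the data gave 7.22% without Dlg2 and 24.2% with every gene weighted equally. Cortex peaks within 200 nt were found for 9 of the 12 N2A peaks. No share of the whole N2A list at this distance is available to set beside it. Extending the spans by 5 kb gave 8 genes with an N2A peak, but the added genes, Grip2 and Lrrc7, took theirs from the other strand, in neighbouring genes. No paired analysis was possible because each group has 1 peak list and no values per sample. Depth is unknown, so an absent peak is not shown to be an absent site.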

Other observations

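Some cortex peaks lay on the strand of a gene just beyond its annotated end. There were 10 such peaks within 5 kb of the end, at 5 of the 30 genes, and 9 of the 10 lay in no other gene span. N2A had 0. Homer1 had 4 of them, 7, 527, 2098 and 3387 nt past the end, with p-values of 0.00214, 1.63e-19, 0.0718 and 1.90e-07, the second of which is lower than that of any peak in the last 5 kb of the Homer1 span (lowest p of 7.40e-14). Cnksr2, on the minus strand, had 3, the strongest 416 nt past the end with a p of 1.41e-55 but inside the span of Klhl34, and another 4589 nt past it with a p of 4.70e-40 and in no other gene. Magi2 had 1 peak 54 nt past the end (p of 0.0213), Dlgap3 had 1 at 1242 nt (p of 0.0626) and Iqsec2 had 1 at 3919 nt (p of 0.0294). These peaks are not counted in the values above. Their number was not set beside that of all coding genes, and the cortex list is the longer one. Whether 10 in cortex and 0 in N2A are usual is therefore not known.

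Peaks on the other strand came close to several gene ends. The strongest of them near Baiap2 lay 584 nt past its end in Aatk, with a p of 4.07e-204. Beyond the end of Lrrc7, a peak in Lrrc40 was present in both lists, with a p of 2.83e-90 in cortex and 3.42e-34 in N2A.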
